A study of Mus musculus with 20 samples.

Results

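The marker genes of resident and alternatively activated macrophages followed here are Mrc1, Clec10a, Folr2, Stab1, Lyve1, Cd163, Timd4, Arg1, Chil3 and Retnla. They were taken by exact gene symbol from tables of 52636 genes, and all 10 of 10 were found, each once. The cells were macrophages grown from mouse fetal liver, taken at embryonic day 14.5 per the design text (14.4 per the growth protocol), during 6 days in medium conditioned by L cells. The groups were 3 animals labelled knockout, with Csf1r-iCre and HuR fl/fl (KO-84, KO-94 and KO-179), and 2 controls, with Csf1r-iCre and HuR +/+ (WT-280 and WT-281). Values of single animals are always listed in that order. All 5 also carried ribosomal protein L10a fused to EGFP; the labels used here do not name its driver. Csf1r-iCre limits recombination to cells that use, or have used, the Csf1r promoter. Plates of each animal were held for 18 h in hypoxia (1% O2, 5% CO2) or normoxia (20% O2, 5% CO2). Each lysate was divided into ribosome-bound RNA, pulled down through the EGFP tag (TRAP), and total RNA (input), which gave 20 poly(A) libraries. Each combination of oxygen and fraction had 3 knockout-labelled and 2 control libraries.

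Resident macrophages of the fetal and adult liver, the Kupffer cell lineage among them, clear senescent red cells, glycoproteins and lipoproteins through scavenger and lectin receptors. Alternative activation is the macrophage state induced by interleukin-4 (IL-4) and interleukin-13 through the transcription factor STAT6, and in mice it is read from Arg1, Chil3, Retnla, Mrc1 and Clec10a. Several of the markers are shared with other liver cells: sinusoidal endothelium also uses Stab1, Lyve1 and Mrc1, and hepatocytes use Arg1.

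The values were TPM, transcript shares scaled for gene length that summed to 1000000 in each library. Read numbers cannot be had from TPM, so depth is unknown, no counting interval is given, and precision rests on 5 animals. A value of exactly 0 is written as listed at 0. The number of genes at 1 TPM or more was 10243 to 12402 per library. Genes with a median of at least 20 TPM that were listed at 0 numbered 0 to 15 in a library, most in the normoxia input library of KO-84. Elavl1, the gene of HuR and the target of the knockout, ranged from 0.760 to 154 TPM over the 20 libraries. The knockout label did not come with lower Elavl1, which measured 29.2, 18.3 and 1.69 TPM in knockout-labelled hypoxia input against 20.8 and 2.07 TPM in controls. It was 40.1 to 154 TPM against 25.9 to 47.3 TPM in normoxia input, 0.760 to 19.6 TPM against 1.14 to 8.25 TPM in hypoxia TRAP, and 3.99 to 72.1 TPM against 2.88 to 40.4 TPM in normoxia TRAP, with overlap each time. TPM of a whole gene do not show whether its floxed segment was lost, so loss of HuR was not tested. The animals are therefore called knockout-labelled below, and a genotype direction is one between labels. The 12 macrophage identity genes, such as Lyz2, Csf1r and C1qa, summed to between 6733 and 20300 TPM in each library, and all 12 were detected. The cultures thus carried the defining markers of their label.

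The promoters of the best-covered receptors and of a marker listed at 0 show what these genes carry near their starts. RefSeq windows on GRCm38.p6 run from 250 bases before to 50 bases after each annotated start, and 7 of the 10 genes had one. Arg1, Clec10a and Lyve1 had none in the table. Capitals mark matches on either strand to motifs of regulators of these cells: PU.1 (GAGGAA), a MAF element (TGCTGA), AP-1 (TGANTCA), STAT6 (TTC and GAA, 4 bases apart) and the hypoxia response element (ACGTG or GCGTG). The MAF element can overlap the AP-1 motif, and the PU.1 motif can share bases with the STAT6 motif. Mrc1 lies at chr2:14229414-14332023, and its window is chr2:14229164-14229463 on the plus strand. Folr2 lies at chr7:101839988-101857190, with one window at chr7:101845282-101845581 and a second at chr7:101857141-101857440, both on the minus strand. Retnla lies at chr16:48842609-48844461, with its window at chr16:48842359-48842658 on the plus strand.
Mrc1: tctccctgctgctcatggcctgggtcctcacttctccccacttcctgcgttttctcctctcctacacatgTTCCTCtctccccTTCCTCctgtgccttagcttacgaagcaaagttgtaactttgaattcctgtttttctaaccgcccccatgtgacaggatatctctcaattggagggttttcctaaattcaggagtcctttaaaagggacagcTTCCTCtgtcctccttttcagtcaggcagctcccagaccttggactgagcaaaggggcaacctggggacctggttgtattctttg
Folr2, first window: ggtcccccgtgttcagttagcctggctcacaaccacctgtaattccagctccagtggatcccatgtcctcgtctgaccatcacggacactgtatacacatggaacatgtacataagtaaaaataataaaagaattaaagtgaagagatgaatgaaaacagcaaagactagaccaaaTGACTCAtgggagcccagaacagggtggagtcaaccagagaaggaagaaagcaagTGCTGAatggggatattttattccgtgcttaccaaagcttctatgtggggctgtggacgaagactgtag
Folr2, second window: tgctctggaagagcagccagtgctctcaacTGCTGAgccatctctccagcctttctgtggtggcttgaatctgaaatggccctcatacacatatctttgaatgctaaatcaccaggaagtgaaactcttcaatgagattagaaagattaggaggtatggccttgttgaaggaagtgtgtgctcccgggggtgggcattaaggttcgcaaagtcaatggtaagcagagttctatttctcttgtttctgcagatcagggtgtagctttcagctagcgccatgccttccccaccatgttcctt
Retnla: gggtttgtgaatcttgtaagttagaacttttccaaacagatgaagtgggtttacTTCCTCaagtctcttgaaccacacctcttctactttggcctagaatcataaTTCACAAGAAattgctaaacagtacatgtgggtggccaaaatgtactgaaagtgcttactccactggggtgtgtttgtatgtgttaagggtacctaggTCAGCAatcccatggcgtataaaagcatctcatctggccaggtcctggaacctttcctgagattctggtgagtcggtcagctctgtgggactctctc

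The Mrc1 window held 3 PU.1 matches, with first bases at -180, -167 and -35 from the start. The first Folr2 window held an AP-1 match at -74 and a MAF match at -19, and the second held a MAF match at -220. The Retnla window held a STAT6 match at -145, a PU.1 match at -196 and a MAF match at -47, and was the one window among the 8 with a STAT6 match. Of 32851 promoters of the same length, 28.3% held the PU.1 motif, 19.5% the MAF element, 7.81% the AP-1 motif, 6.95% the STAT6 motif and 43.8% a hypoxia response element. Among the 8 windows, that of Cd163 held the one match to a hypoxia response element. These matches are letters in a window, and binding was not measured.

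The markers fell into an abundant set, a low set and a set that was not detected. Folr2, the folate receptor of resident macrophages, was highest with a mean of 140 TPM (range 43.0 to 289) in TRAP and 155 TPM (42.9 to 357) in input. Mrc1, the mannose receptor that takes up mannose-ended glycoproteins, followed at 70.2 TPM (41.4 to 112) in TRAP and 119 TPM (57.6 to 257) in input. Stab1, the scavenger receptor stabilin-1, averaged 38.6 TPM (9.80 to 108) in TRAP and 52.6 TPM (14.9 to 115) in input. Folr2 exceeded 92.6% of the genes with a mean of at least 1 TPM in TRAP and 93.5% in input. Arg1, the arginase that turns arginine into ornithine and urea, averaged 19.8 TPM (1.17 to 45.2) in TRAP and 21.5 TPM (1.23 to 42.7) in input. Clec10a, a lectin for galactose-type sugars, averaged 5.92 TPM (1.23 to 13.3) in input, and in TRAP it was listed at 0 in 2 of 10 libraries and reached 12.4 TPM. The ranges of each neighbouring pair in this order overlapped in both fractions, so the order is one of means.

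The other 5 markers were at or near 0. Lyve1, a hyaluronan receptor of tissue macrophages and lymphatic endothelium, was above 0 in 9 of 20 libraries and reached 6.73 TPM in the normoxia TRAP library of KO-84. The next highest Lyve1 value was 1.76 TPM, in the normoxia input library of KO-179. Timd4, a phosphatidylserine receptor that marks long-lived resident macrophages, was above 0 in 5 of 20 libraries and reached 4.29 TPM in the normoxia TRAP library of KO-179. Cd163, the haemoglobin-haptoglobin scavenger receptor, was listed at 0 in all 20 libraries. So were Chil3, a secreted chitinase-like protein, and Retnla, a secreted resistin-like protein. The close relatives Chil1, Chil4, Retnlb and Retnlg were also listed at 0 in all 20 libraries. Mgl2, the close paralog of Clec10a with which reads can be shared, was above 0 in 1 library at 0.162 TPM.

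**Figure D1:**
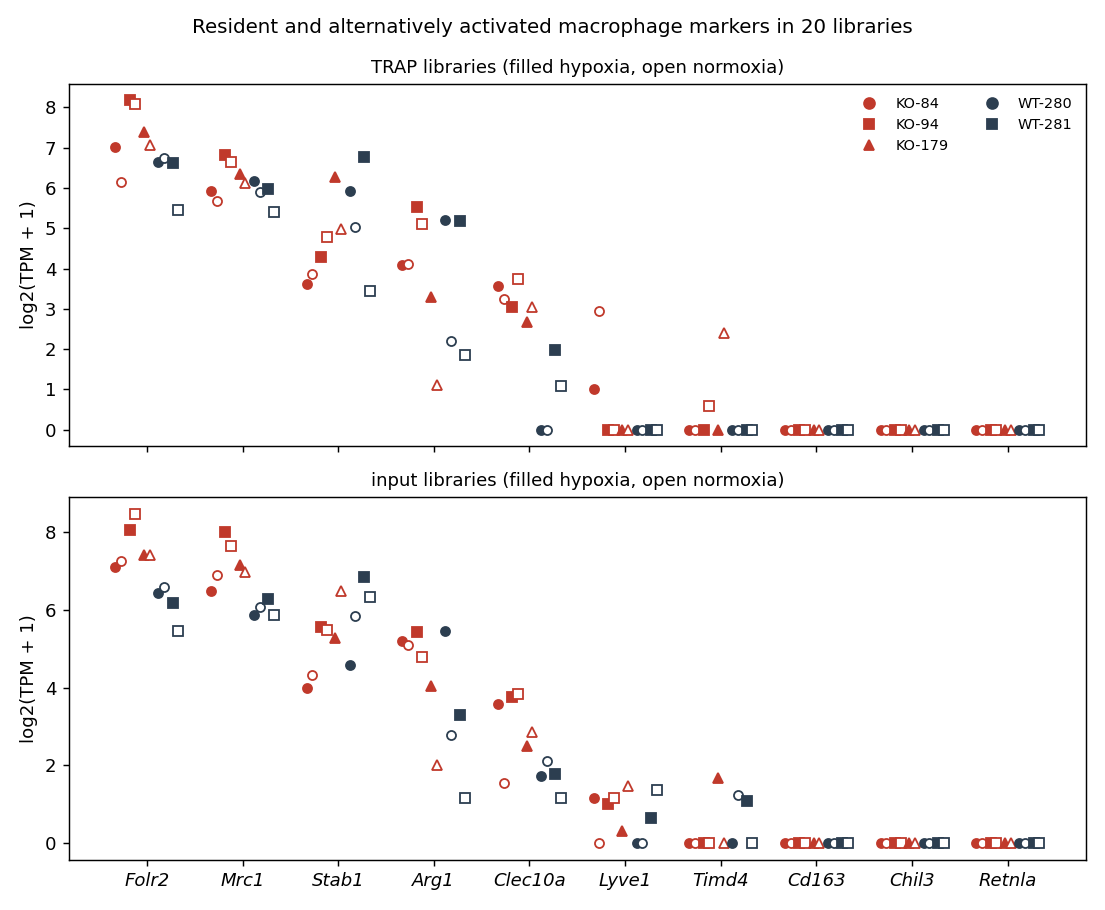
Level of each marker, as log2(TPM + 1), in 10 TRAP libraries (above) and 10 input libraries (below); each point is 1 library, with animals by colour and shape, hypoxia filled and normoxia open. Folr2, Mrc1, Stab1 and Arg1 lie above 0 in all 20 libraries, Clec10a is listed at 0 in 2, Lyve1 and Timd4 in most, and Cd163, Chil3 and Retnla in all.

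A gene entered the tests if 2 or more libraries had 1 TPM or more, which left 13901 genes in input, 13522 in TRAP and 14842 for both fractions together. The test was limma on log2(TPM + 1), and a gene passed at a Benjamini-Hochberg adjusted p under 0.05. Fold changes on this scale understate those of low genes such as Clec10a. In input 7 markers were tested, and in TRAP 6, where Timd4 did not reach the minimum. Cd163, Chil3 and Retnla had no value to test. No marker passed in any comparison, so differences below are given as measured values with their errors.

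The first question was whether the markers differed between the genotype labels in total RNA. Mrc1 and Folr2 were higher in every knockout-labelled input library than in every control input library, at both oxygen levels. In hypoxia input, Mrc1 measured 89.3, 257 and 142 TPM under the knockout label and 58.2 and 76.8 TPM in controls. In normoxia input, Mrc1 measured 118, 200 and 124 TPM under the knockout label and 66.8 and 57.6 TPM in controls. KO-94 was highest both times, and the lowest knockout-labelled library, KO-84 in hypoxia, stood close above the highest control. Folr2 measured 137, 268 and 171 TPM in knockout-labelled hypoxia input against 86.3 and 72.2 TPM in controls. In normoxia input it measured 153, 357 and 169 TPM under the knockout label and 95.1 and 42.9 TPM in controls. Here too KO-94 stood highest, and WT-281 in normoxia stood lowest.

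With 1 value per animal, averaged over both oxygen levels, the log2 difference of knockout-labelled minus control in input was 1.17 ± 0.48 for Mrc1 (SE, n = 3 and 2 animals; limma, adjusted p = 0.982). For Folr2 it was 1.46 ± 0.49 (limma, adjusted p = 0.982). The median of all genes tested lay at 0.24, and relative to it the differences were 0.92 for Mrc1 and 1.21 for Folr2. Of all 13901 genes none, or 0%, passed limma; an unadjusted p under 0.05 was found for 349. Of the 7 tested markers, 2 had every knockout-labelled input library above every control one, against 1.34% of all genes. With any 1 animal left out, the Mrc1 difference ranged from 0.85, without KO-94, to 1.42, and that of Folr2 from 1.11, without WT-281, to 1.80. In bulk RNA, a higher number of cells of a type and more RNA per cell cannot be told apart.

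Clec10a was low, and most of its higher values were under the knockout label. In hypoxia input it measured 11.1, 12.7 and 4.67 TPM under the knockout label and 2.34 and 2.42 TPM in controls, with no overlap. In normoxia input it measured 1.91, 13.3 and 6.29 TPM under the knockout label and 3.31 and 1.23 TPM in controls, where KO-84 lay between the controls. Its log2 difference over both oxygen levels was 1.32 ± 0.66 (limma, adjusted p = 0.982), and 0.78 with a pseudocount of 5. In hypoxia input alone, Mrc1, Folr2 and Clec10a, 3 of 7 tested markers, had all knockout-labelled libraries above all controls, against 18.4% of all genes. In normoxia input, it was Mrc1 and Folr2, against 9.42% of all genes. At either level 0% of genes passed limma, while the unadjusted p was under 0.05 for 901 genes in hypoxia and 304 in normoxia.

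The remaining markers overlapped between labels in input. Stab1 measured 14.9, 46.1 and 38.3 TPM in knockout-labelled hypoxia input and 23.2 and 115 TPM in control hypoxia input. In normoxia input it measured 19.1, 44.0 and 88.3 TPM under the knockout label and 56.8 and 80.3 TPM in controls. KO-84 was the lowest animal both times, and the highest was WT-281 in hypoxia and KO-179 in normoxia. The Stab1 difference over both oxygen levels was -0.72 ± 0.62 (limma, adjusted p = 0.982), opposite in sign to that of Mrc1 and Folr2. Arg1 differed by 1.25 ± 0.77 (limma, adjusted p = 0.982), Lyve1 by 0.35 ± 0.48 and Timd4 by -0.30 ± 0.43.

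**Figure D2:**
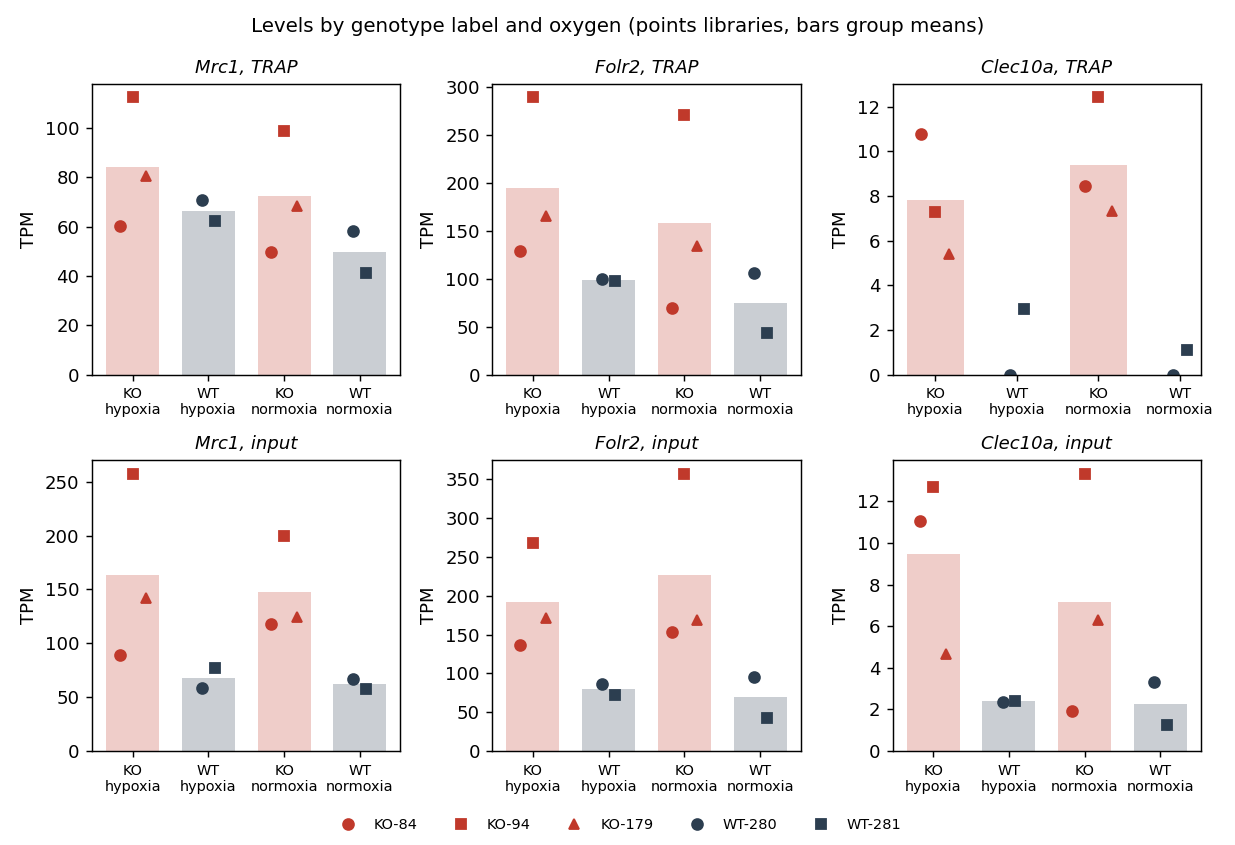
TPM of Mrc1, Folr2 and Clec10a in TRAP (above) and input (below), by genotype label and oxygen level; points are libraries, and bars are group means, left out where a library is listed at 0. Every knockout-labelled input library of Mrc1 and Folr2 lies above the control input libraries, while the Mrc1 TRAP libraries overlap between labels, and Clec10a TRAP lies at 5.42 TPM or more under the knockout label and at 2.96 TPM or less in controls.

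In ribosome-bound RNA, Clec10a was separated between labels at both oxygen levels and Folr2 in hypoxia. Clec10a in hypoxia TRAP measured 10.8, 7.30 and 5.42 TPM under the knockout label, against 0 and 2.96 TPM in controls. In normoxia TRAP it measured 8.45, 12.4 and 7.31 TPM under the knockout label, against 0 and 1.12 TPM in controls. All 6 knockout-labelled TRAP libraries stood above all 4 control ones, and WT-280 was listed at 0 both times. The log2 difference was 2.46 ± 0.73 (limma, adjusted p = 1). Its size depends on the pseudocount, with 4.26 at 0.1 and 1.18 at 5, and it was 1.69 without WT-280. The one of 6 tested markers separated in this way compares with 1.12% of all genes, and 1 of 13522 genes, no marker, passed the test (0.0074%).

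The labels lay closer together for Mrc1 and Folr2 in TRAP. Mrc1 in hypoxia TRAP measured 60.1, 112 and 80.7 TPM under the knockout label and 70.7 and 62.1 TPM in controls. In normoxia TRAP it measured 49.7, 98.6 and 68.4 TPM under the knockout label and 58.4 and 41.4 TPM in controls. At both oxygen levels KO-94 was highest and KO-84 lay among or below the controls. The Mrc1 difference in TRAP was 0.39 ± 0.53 (limma, adjusted p = 1), and 0.16 without KO-94. Folr2 in hypoxia TRAP measured 129, 289 and 166 TPM under the knockout label and 99.7 and 97.1 TPM in controls, which did not overlap. In normoxia TRAP the labels overlapped, with 69.9, 271 and 134 TPM under the knockout label and 106 and 43.0 TPM in controls. The Folr2 difference in TRAP was 0.95 ± 0.55 (limma, adjusted p = 1), and 0.54 without KO-94.

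Within single oxygen levels, TRAP values gave no marker past the threshold. In hypoxia TRAP, Clec10a and Folr2 of 6 tested markers had all knockout-labelled libraries above all controls, against 9.36% of all genes, and in normoxia TRAP Clec10a did, against 9.85%. By limma 0% of genes passed at either level, with 585 and 704 genes at an unadjusted p under 0.05 in hypoxia and normoxia. Stab1 in hypoxia TRAP measured 11.4, 18.7 and 76.0 TPM under the knockout label and 59.6 and 108 TPM in controls. KO-179 lay between the controls and the other knockout-labelled animals well below them, for a log2 difference of -1.61 ± 0.78 (limma, adjusted p = 1). In normoxia TRAP, Stab1 measured 13.5, 26.5 and 30.8 TPM under the knockout label and 31.9 and 9.80 TPM in controls. There the 2 controls enclosed all 3 knockout-labelled values.

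Genes of related pathways were read beside the markers, and none of the genes on these lists passed in any comparison between labels. KO-94 stood apart in several of them, so counts without it, chosen after it was seen to stand apart, are given beside them. Of all genes tested, 66.7% were higher under the knockout label in input and 53.6% in TRAP, and without KO-94 these shares were 55.0% and 44.3%. Of 12 tested scavenger and clearance receptors outside the 10 markers, 10 were higher under the knockout label in input (median 0.74, all genes 0.24) and 8 in TRAP (0.47, all genes 0.06). Without KO-94 it was 7 of 12 in input (0.08, all genes 0.06) and 5 of 12 in TRAP (-0.09, all genes -0.08). Summed over the list, KO-94 had 2416 TPM in hypoxia input and 2236 TPM in normoxia input, while the other 2 knockout-labelled animals had 546 to 965 TPM and the controls 473 to 1042 TPM. Gas6, a ligand that bridges dying cells to TAM receptors, averaged 45.9 TPM (range 17.1 to 74.9) in 6 knockout-labelled input libraries against 10.9 TPM (1.46 to 16.4) in 4 controls. Axl, one of those receptors, averaged 63.9 TPM (29.4 to 119) against 17.9 TPM (5.30 to 24.5). Cd5l, a lipid-associated protein secreted by Kupffer cells, averaged 108 TPM (28.2 to 282) against 19.0 TPM (4.53 to 30.9). Gas6 and Axl did not overlap between labels, as for 1.34% of all genes, and the labels stood close for Gas6. The lowest knockout-labelled value of Cd5l lay below the highest control. Gas6, Axl and Cd5l were named for the largest differences in their list. Their log2 differences were 2.12 ± 0.65, 1.76 ± 0.60 and 2.08 ± 0.80 (limma, adjusted p = 0.982 each), and 1.78, 1.24 and 1.15 without KO-94. Vsig4, Cd209b and Cd209f, receptors of tissue macrophages, were listed at 0 in all 20 libraries.

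The other resident-type genes gave a like count, with 10 of 12 higher in input (median 0.66) and 9 of 13 in TRAP (0.50), and without KO-94 with 10 of 12 (0.58) and 9 of 12 (0.36). Gas6 is on this list as well as on the receptor list above, so the counts are not of separate genes. Selenop, a selenium carrier, averaged 1545 TPM (795 to 3365) in knockout-labelled input and 513 TPM (417 to 596) in control input (log2 difference 1.33 ± 0.56; limma, adjusted p = 0.982). KO-94 had 3365 TPM in hypoxia input and 2522 TPM in normoxia input, and without it the knockout-labelled mean was 845 TPM (795 to 889) and the log2 difference 0.73. Summed over the list, KO-94 had 4588 TPM and 3781 TPM in those libraries, against 1940 to 2166 TPM in the other knockout-labelled animals and 1400 to 1960 TPM in controls. Resident macrophage transcription factors were higher for 6 of 8 in input (0.48) and 3 of 7 in TRAP (-0.21), and without KO-94 for 3 of 8 (-0.07) and 4 of 7 (0.02). Id3, a regulator of Kupffer cell identity, averaged 23.1 TPM (9.76 to 44.8) in knockout-labelled input and 59.6 TPM (12.3 to 123) in control input, with overlap (-1.11 ± 0.57).

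Of the 12 IL-4 and STAT6 genes, all were detected; 9 of 12 were higher under the knockout label in input (median 0.35) and 5 of 11 in TRAP (-0.05). Without KO-94 the same counts stood, with medians of 0.20 and -0.02. Egr2, a transcription factor induced by IL-4, averaged 23.7 TPM (5.72 to 47.9) in knockout-labelled input and 5.09 TPM (0.404 to 11.9) in control input (2.06 ± 0.76; limma, adjusted p = 0.982; 1.46 without KO-94). Il4ra, the receptor chain for IL-4, averaged 29.5 TPM (11.8 to 61.1) against 8.34 TPM (2.54 to 11.5). Its log2 difference was 1.51, and 0.83 without KO-94. The labels stood close but did not overlap, as for 1.34% of all genes, and Il4ra too was named for its large difference. Among the 14 other alternative-activation genes, Ccl17, Cd209a, Cd209d, Chil4, Ear2 and Retnlg were listed at 0 in every library and 4 were tested, all of them higher in both fractions. Without KO-94, 3 passed the minimum, and 3 were higher in input and 2 in TRAP. One of these 4, Il1rn, the interleukin-1 receptor antagonist, averaged 40.1 TPM (19.3 to 71.1) in knockout-labelled input and 15.8 TPM (7.37 to 21.9) in control input. Its log2 difference was 1.27, and 0.95 without KO-94. Folate genes other than Folr2 were split, with 6 of 11 higher in each fraction (median 0.09 in input and 0.34 in TRAP). Arginine metabolism genes other than Arg1 were split too, with 5 of 8 higher in each fraction (median 0.04 in each). Without KO-94, 4 of 11 folate genes were higher in input (-0.22) and 5 of 10 in TRAP (-0.42), and 2 of 8 arginine genes in each fraction (-0.28 and -0.08).

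Markers of some other cell types differed between the labels. The fibroblast list, 11 genes such as Acta2 and Col1a1, was lower under the knockout label for 9 of 10 tested genes in input (median -0.66) and 8 of 8 in TRAP (-1.70). Its summed level was 85.7 to 298 TPM in knockout-labelled hypoxia input against 370 to 378 TPM in controls, and 130 to 231 TPM against 354 to 580 TPM in normoxia input. In TRAP it was 4.67 to 94.7 TPM against 83.9 to 149 TPM in hypoxia and 11.8 to 54.0 TPM against 81.4 to 120 TPM in normoxia. Much of the input sum came from Acta2. In normoxia input it averaged 102 TPM of a mean sum of 187 TPM under the knockout label, and 307 of 467 TPM in controls. Without KO-94 the list was lower for 9 of 10 genes in input (-0.53) and 7 of 8 in TRAP (-1.38). The input groups did not overlap, and the part of this difference in the marker values was not tested. The endothelial list summed to 25.6 to 61.5 TPM in knockout-labelled hypoxia input against 28.3 to 36.2 TPM in controls, and 28.3 to 44.7 TPM against 27.9 to 36.6 TPM in normoxia input. In TRAP it was 24.7 to 42.1 TPM against 27.1 to 44.9 TPM in hypoxia and 14.0 to 44.5 TPM against 45.7 to 52.8 TPM in normoxia, where the labels did not overlap. Of its 13 genes, Clec4g, Emcn, Erg, Tek and Tie1 were listed at 0 in all 20 libraries, and Stab2, the sinusoidal relative of Stab1, in 14. The part of endothelial cells in the marker values was not tested.

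The macrophage identity list was higher under the knockout label for 11 of 13 genes in input (median 0.66, all genes 0.24). In hypoxia input it was 11 of 13 (1.28, all genes 0.36), in normoxia input 10 of 13 (0.70, all genes 0.11), and in TRAP over both oxygen levels 9 of 13 (0.34, all genes 0.06). Without KO-94 it was 11 of 13 in input (0.45) and 9 of 13 in TRAP (0.15). The part of these differences in the marker values was not tested. The summed level of this list overlapped between labels in every condition, and most of that sum came from Lyz2 (3158 to 14824 TPM) and Cd68 (1814 to 3728 TPM).

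The hepatoblast list was higher under the knockout label for 6 of 7 tested genes in input (median 0.32, all genes 0.24). Its summed level was 66.4 to 430 TPM in knockout-labelled hypoxia input against 29.2 to 64.6 TPM in controls, and 56.1 to 377 TPM against 48.3 to 61.0 TPM in normoxia input, and the highest value each time was that of KO-94. In TRAP it was 24.6 to 196 TPM against 26.4 to 40.0 TPM in hypoxia. In normoxia TRAP it was 21.2 to 143 TPM against 30.4 to 55.8 TPM, with overlap both times. Without KO-94 the list was higher for 4 of 6 genes in input (0.31, all genes 0.06). In TRAP it was then higher for 2 of 4 (0.01, all genes -0.08). Nearly all of the sum came from Trf, the iron carrier transferrin, at 16.4 to 417 TPM. Alb, a defining hepatocyte gene, was listed at 0 in 9 of 20 libraries and Afp in 3, and Apoa1 and Ttr in 18 and 16.

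Of the 7 megakaryocyte genes, Pf4 and Ppbp were tested, and both were lower under the knockout label in input (median -1.28) and in TRAP (-1.24). Without KO-94 these medians were -0.75 and -0.67. Summed, the list had 2133 to 10238 TPM in knockout-labelled hypoxia input against 16145 to 16942 TPM in controls, and 1620 to 9626 TPM against 13197 to 13412 TPM in normoxia input, with no overlap. In TRAP it was 2044 to 13826 TPM against 8735 to 18388 TPM in hypoxia and 1625 to 12139 TPM against 11602 to 14346 TPM in normoxia, with overlap. KO-94 was lowest each time. Nearly all of the sum came from Pf4 (1608 to 18321 TPM), a chemokine that macrophages also make. Gp9, Itga2b and Gp1bb were listed at 0 in 18, 15 and 16 of 20 libraries, and Gp5 in all 20. The part of this difference in the marker values was not tested. Dendritic, monocyte and neutrophil lists summed to at most 43.0, 44.8 and 37.7 TPM in a library. Without KO-94, 2 of 2 tested dendritic genes were higher under the knockout label in TRAP (median 0.78) and 1 of 3 in input (-0.37). For monocyte genes it was 2 of 3 (0.60) and 1 of 2 (0.01). For neutrophil genes it was 1 of 2 (-0.86) and 1 of 3 (-0.74). With all animals, input log2 differences were 1.97 for Itgax and -0.08 for Batf3 (dendritic), -0.47 for Plac8 (monocyte) and -2.12 for S100a8 (neutrophil). Without KO-94 they were 0.96, -0.37, 0.41 and -1.68. In TRAP with all animals, Batf3 differed by 0.40, Plac8 by 1.58 and S100a8 by -1.91. The part of these cells in the values of Clec10a and the other markers was not tested.

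**Figure D3:**
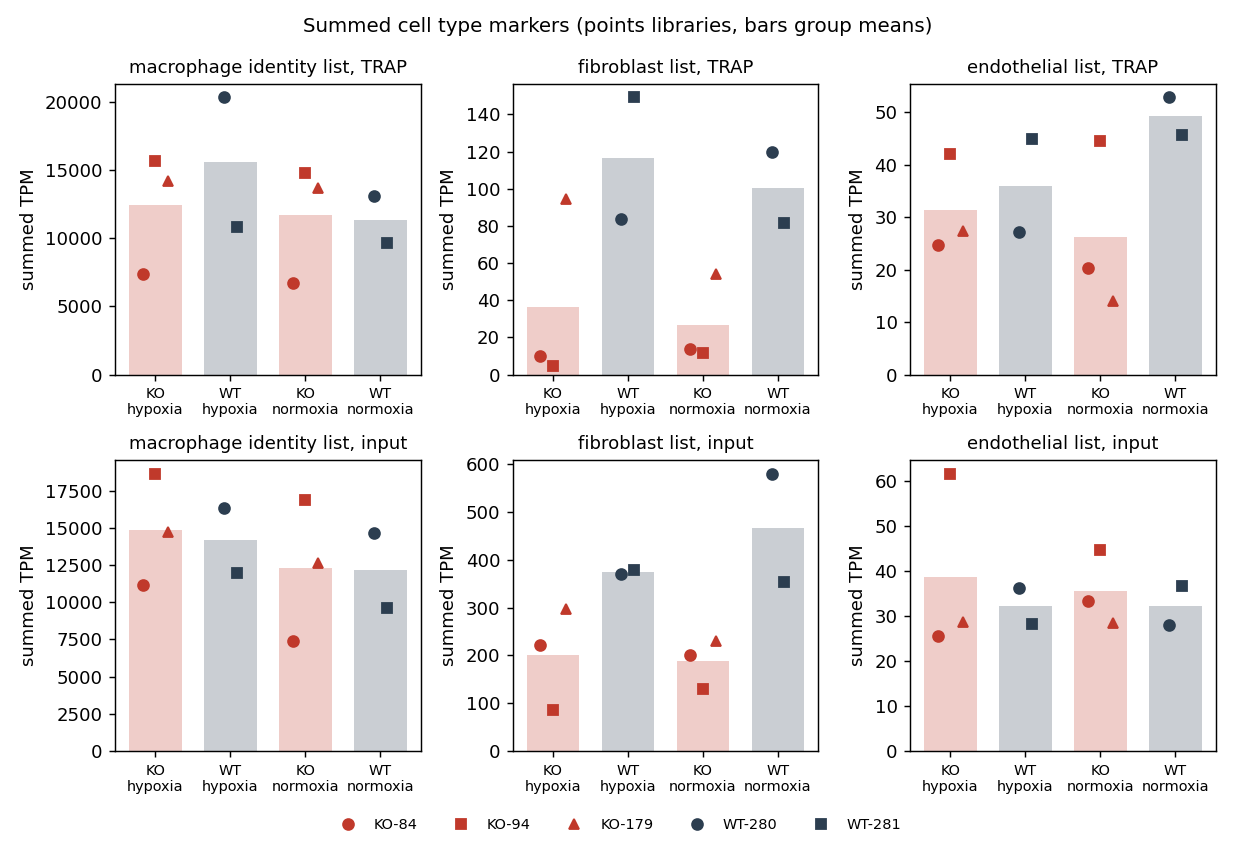
Summed TPM of the macrophage identity, fibroblast and endothelial lists in TRAP (above) and input (below), by genotype label and oxygen level; points are libraries and bars are group means. Fibroblast sums in input reach 298 TPM under the knockout label and start at 354 TPM in controls, while the macrophage sums, mostly of Lyz2 and Cd68, overlap although 11 of the 13 genes of that list were higher under the knockout label in input.

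The next question was whether the markers differed between oxygen levels. Arg1, a gene known to respond to hypoxia in macrophages, was higher in hypoxia than in normoxia in 5 of 5 animals in input and in 4 of 5 in TRAP. In hypoxia input, Arg1 measured 35.8, 42.3 and 15.5 TPM under the knockout label and 42.7 and 8.85 TPM in controls. In normoxia input it measured 33.3, 26.6 and 3.05 TPM under the knockout label and 5.94 and 1.23 TPM in controls. The step was small in KO-84 (0.10 on the log2 scale) and reached 2.65 in WT-280. In hypoxia TRAP, Arg1 measured 16.1, 45.2 and 8.73 TPM under the knockout label and 35.7 and 35.5 TPM in controls. In normoxia TRAP it measured 16.3, 33.4 and 1.17 TPM under the knockout label and 3.60 and 2.63 TPM in controls. KO-84 was level between oxygen conditions, and both controls were far higher in hypoxia.

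The Arg1 log2 difference of hypoxia minus normoxia was 2.01 ± 0.71 in TRAP (limma, adjusted p = 1) and 1.66 ± 0.68 in input (limma, adjusted p = 0.999). The input value was 1.13 without the hypoxia library of WT-280. The median of all genes tested lay at 0.01 in TRAP and -0.15 in input. By limma 0% of genes passed in either fraction, with 339 genes in TRAP and 321 in input at an unadjusted p under 0.05. Arg1 was the one marker higher in all 5 animals in input, against 2.41% of all genes. The controls showed larger steps than the knockout-labelled animals, but the interaction of label and oxygen for Arg1 was -2.31 ± 1.42 in TRAP (limma, adjusted p = 1) and -1.47 ± 1.35 in input (limma, adjusted p = 1; the median of all genes lay at 0.25). For that interaction 0% of genes passed in either fraction, with 284 genes in TRAP and 261 in input at an unadjusted p under 0.05. With the animal as a replicate block, the errors of the Arg1 interaction were 0.79 in TRAP and 0.66 in input (limma, adjusted p = 0.829 and 0.764).

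The receptors showed smaller or divided oxygen differences. Mrc1 in TRAP was higher in hypoxia in 5 of 5 animals, by 0.19 to 0.58, as were 3.45% of all genes, and its difference was 0.33 ± 0.35 (limma, adjusted p = 1). In input it was higher in 3 of 5 animals (0.08 ± 0.35). Folr2 was higher in hypoxia in 4 of 5 animals in TRAP (0.48 ± 0.43) and in 2 of 5 in input (0.06 ± 0.36). Clec10a had no common direction, with 2 of 5 animals higher in each fraction. Stab1 was higher in hypoxia in 3 of 5 animals in TRAP, where WT-281 had 108 TPM in hypoxia against 9.80 TPM in normoxia. Its difference was 1.15 ± 0.55 in TRAP (limma, adjusted p = 1), 0.53 without WT-281, 1.76 without WT-280, and -0.43 ± 0.54 in input.

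**Figure D4:**
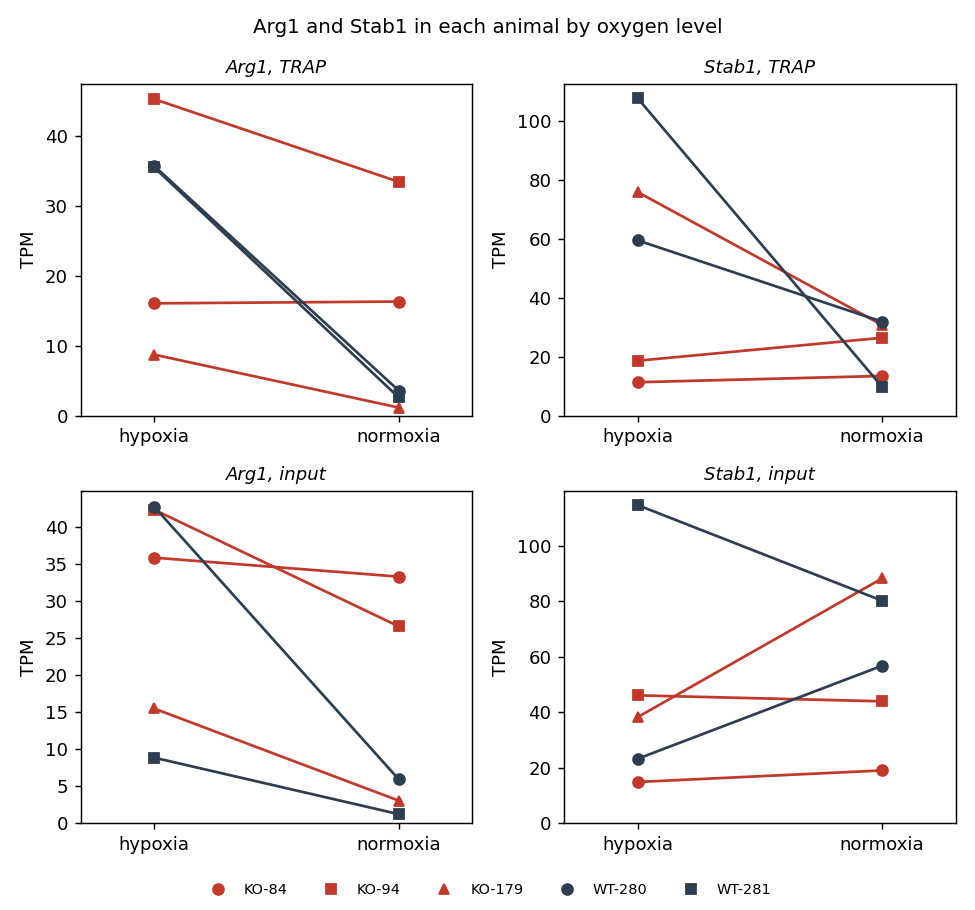
TPM of Arg1 and Stab1 in each animal in hypoxia and normoxia, for TRAP (above) and input (below); each line joins the libraries of 1 animal. Arg1 in TRAP lies at 35.7 and 35.5 TPM in hypoxia against 3.60 and 2.63 TPM in normoxia in the controls, and is level in KO-84, while Stab1 lines cross.

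None of the related lists held a gene that passed between oxygen levels. Of all genes tested, 51.2% were higher in hypoxia in TRAP and 35.1% in input. Il13ra1, a receptor chain for interleukin-13, averaged 8.24 TPM (5.43 to 11.1) in hypoxia input and 3.43 TPM (1.18 to 8.22) in normoxia input, a difference of 1.26 ± 0.52 (limma, adjusted p = 0.999). Of the other resident-type genes, 12 of 13 were lower in hypoxia in TRAP (median -0.21, all genes 0.01) and 8 of 12 in input (-0.18, all genes -0.15). Slc40a1, the iron exporter ferroportin, averaged 11.7 TPM (8.85 to 16.5) in hypoxia input and 27.4 TPM (15.6 to 36.2) in normoxia input (-1.10 ± 0.38; limma, adjusted p = 0.999). Of 8 other arginine metabolism genes, 5 were higher in hypoxia in TRAP (median 0.10, all genes 0.01) and 2 in input (-0.12, all genes -0.15). Nos2, the nitric oxide synthase that competes with Arg1 for arginine, was listed at 0 in 19 of 20 libraries.

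Last, ribosome-bound RNA was set against total RNA of the same lysates. Both are shares within a library, so a difference is relative to the other transcripts of each fraction. In normoxia, Mrc1 was lower in TRAP than in input in 5 of 5 animals, by 1.23, 1.01 and 0.85 on the log2 scale in knockout-labelled animals and by 0.19 and 0.47 in controls. Stab1 was also lower in TRAP in 5 of 5 animals. These 2 of 7 tested markers compare with 14.7% of all genes lower in TRAP in 5 of 5 animals. The differences were -0.68 ± 0.33 for Mrc1 (limma, adjusted p = 0.516) and -1.38 ± 0.59 for Stab1 (limma, adjusted p = 0.449), where the median of all genes lay at -0.28. Without WT-281 that of Stab1 was -0.85. In normoxia 34 genes passed (0.229%), all lower in TRAP, and 474 with the animal as a replicate block; Mrc1 and Stab1 had adjusted p = 0.0604 and 0.0847 under the block (limma).

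In hypoxia, Mrc1 was lower in TRAP in 4 of 5 animals (-0.43 ± 0.33; limma, adjusted p = 1) and Stab1 in 3 of 5 (0.20 ± 0.59), where 8.18% of all genes were lower in all 5 animals. There 13 genes passed (0.0876%) and 61 with the replicate block, none of them a marker. Folr2, Clec10a and Arg1 had means within 0.48 of 0 at both oxygen levels, with animals on both sides. The TRAP-minus-input difference of Mrc1 was lower in all 3 knockout-labelled animals than in both controls at each oxygen level, and so was that of Folr2. These 2 of 7 tested markers compare with 2.43% of all 14842 genes. Averaged over oxygen levels, the difference of knockout-labelled minus control was -0.77 ± 0.33 (limma, adjusted p = 0.758), a test added after the values had been seen. It was -0.51 ± 0.32 for Folr2 and 1.13 ± 0.75 for Clec10a (limma, adjusted p = 0.78 and 0.785), and 0% of 14842 genes passed, with 960 at an unadjusted p under 0.05. The median of all genes for this difference lay at -0.15.

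**Figure D5:**
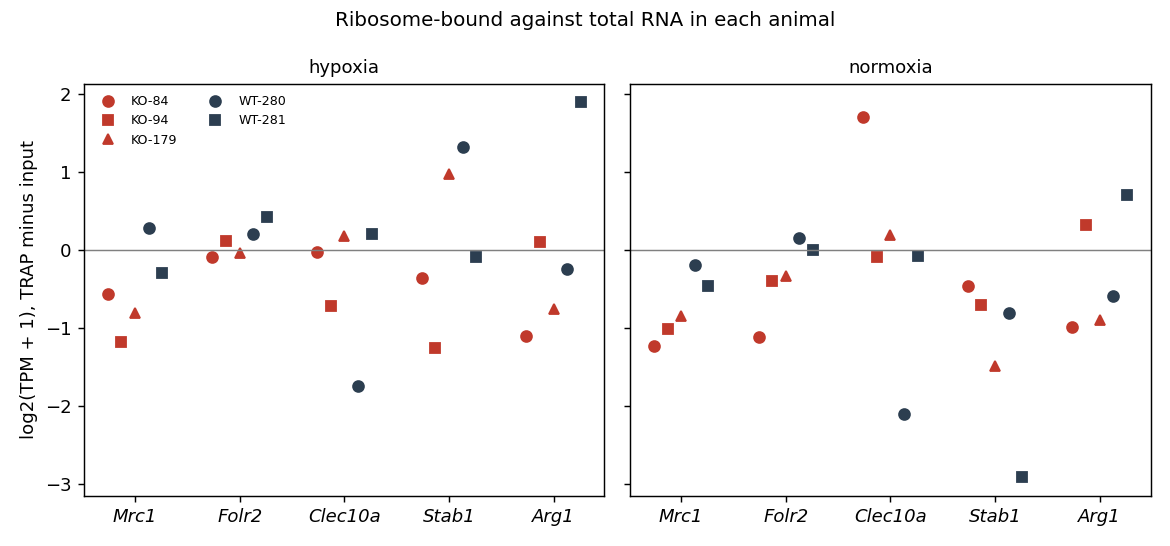
Difference of TRAP minus input, in log2(TPM + 1), for 5 markers in each animal in hypoxia (left) and normoxia (right); each point is 1 animal and the grey line marks 0. In normoxia Mrc1 and Stab1 lie below 0 in all 5 animals, with Mrc1 lower in the knockout-labelled animals (-1.23 to -0.85) than in the controls (-0.19 and -0.47).

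The fibroblast list was also lower in TRAP, for 9 of 10 tested genes at each oxygen level (median -1.26 in hypoxia and -1.17 in normoxia). The macrophage identity list, whose symbol Itgam has 2 gene IDs and so counts 13, was lower for 11 of 13 in hypoxia (-0.29) and 13 of 13 in normoxia (-0.45). Other scavenger and clearance receptors were lower in TRAP for 8 of 12 in hypoxia and 11 of 12 in normoxia. Most genes were lower in TRAP: of all genes tested, only 41.2% were higher in TRAP in hypoxia (median -0.10) and 29.3% in normoxia (-0.28).

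The genes whose profile over the 20 libraries was most like that of each marker were found as those with the smallest root mean square difference of centred log2(TPM + 1) values, among 7781 genes with a mean of at least 5 TPM. For Mrc1 these were Gusb (0.28), Lamp1 (0.29) and Ctsb (0.30), all of lysosomal proteins, where the median gene searched lay at 0.80. For Folr2 they were Timp2 (0.36), Btbd1 (0.38) and Cotl1 (0.41), with the median at 0.93. The nearest genes of Clec10a (Zkscan14, 0.54), Stab1 (Poc1b, 0.73) and Arg1 (Slc7a6os, 0.96) lay further off, against medians of 1.28, 1.21 and 1.61. The measure grows with the spread of the marker itself, so it does not rank closeness between markers. That spread was 0.65 for Mrc1, 0.82 for Folr2, 1.16 for Clec10a, 1.04 for Stab1 and 1.48 for Arg1. The 20 libraries come from 5 animals, so these profiles share animal and fraction.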

How the data were processed

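Per the labels' protocols, poly(A) libraries were made from EGFP-L10a-bound and total RNA of divided lysates. The submitters' processing notes name HISAT, DESeq2 and GRCm38; their roles and versions, and how TPM were computed, are not given in the sources used here. The deposited tables hold TPM, read as such because each library sums to 1000000; 10 columns of per-animal ratios in each table were not used. Values were analysed as log2(TPM + 1) with limma 3.58.1 (empirical Bayes variances with a mean-variance trend) in R 4.3.3, fitted over all genes with 1 mean per group, or 1 value per animal for both oxygen levels together; levels and sums were computed with pandas 2.3.3 in Python 3.11.15. The steps were tested on simulated data. Libraries of 1 animal are paired: their hypoxia and normoxia deviations correlated across genes at r = 0.233 to 0.579 in TRAP and 0.280 to 0.755 in input. From each list, all passing genes, otherwise up to 3 genes with a mean of at least 5 TPM and the largest log2 difference, could be named; Nos2, Stab2, Mgl2 and genes listed at 0 were named after their values were seen. Alternatives tried were pseudocounts of 0.1 and 5, quantile normalization, testing without the filter or the trend, fitting the compared libraries alone, the animal as a replicate block, and leaving out animals or single libraries. The markers and lists were chosen with earlier results of these data known.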

Additional observations from a re-analysis of the deposited data

Results flagged for a closer look

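In normoxia, Folr2 was lower in TRAP than in input in every knockout-labelled animal (-1.12, -0.40 and -0.33 on the log2 scale, KO-84 first and KO-179 last) and not lower in either control (0.15 in WT-280 and 0.0031 in WT-281). The mean of the knockout-labelled animals minus that of the controls was -0.694. This split of directions at a single oxygen level was not tested, and WT-281 lay next to 0. In hypoxia the knockout-labelled animals were themselves on both sides of 0, at -0.09, 0.11 and -0.04, against 0.21 and 0.42 in the controls.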

How the results depend on the processing

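No marker passed the adjusted threshold under any alternative run. Testing without the filter or the trend, fitting the compared libraries alone and the replicate block leave a log2 difference as it is. Under the alternatives that can move it, 547 values over markers and comparisons kept their direction and 33 reversed, 31 of them when an animal or library was left out; the cause was not tested. For Mrc1, these values spanned -0.072 to 0.23 for oxygen in input, -0.36 to 0.25 for label by oxygen in input. For Folr2, these values spanned -0.16 to 0.28 for oxygen in input, -0.73 to 0.51 for label by oxygen in TRAP. For Clec10a, these values spanned -0.045 to 0.58 for oxygen in input, -0.12 to 0.33 for oxygen in TRAP, -0.34 to 0.91 for label by oxygen in input, -0.76 to 0.26 for TRAP against input in normoxia, -0.97 to 0.0085 for TRAP against input in hypoxia. For Stab1, these values spanned -1.91 to 0.35 for labels in hypoxia input, -0.50 to 1.11 for labels in normoxia TRAP, -0.87 to 0.14 for oxygen in input, -1.24 to 0.77 for label by oxygen in input, -0.15 to 0.55 for TRAP against input in hypoxia, -0.81 to 0.95 for label by fraction. For Arg1, these values spanned -0.56 to 1.59 for labels in hypoxia input, -0.46 to 1.10 for labels in TRAP, -0.56 to 0.089 for TRAP against input in normoxia, -0.42 to 0.65 for TRAP against input in hypoxia. Quantile normalization reversed TRAP against input in normoxia for Clec10a (0.16) and Arg1 (0.18).

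Counts of passing genes changed as follows, with the cause not tested. Without the filter, knockout-labelled against control gave 1 gene in normoxia input, 1 in hypoxia input, 2 in normoxia TRAP, 10 in hypoxia TRAP and 0 in TRAP over both oxygen levels, and TRAP against input in hypoxia gave 21. Quantile normalization gave 7 genes for TRAP against input in normoxia, 5 in hypoxia, and 0 between labels in TRAP over both oxygen levels, where no trend and a pseudocount of 0.1 also gave 0. A pseudocount of 0.1 gave 1 gene for the label by oxygen interaction in TRAP and 1 for TRAP against input in hypoxia. A pseudocount of 5 gave 1 gene between labels in normoxia TRAP and 1 in hypoxia TRAP. Fitting the compared libraries alone gave 1 gene between labels in hypoxia input and 1 for TRAP against input in hypoxia. Leaving out animals or libraries gave 0 to 2 genes between labels in normoxia input, 0 to 1 in hypoxia input, 0 to 1 in normoxia TRAP, 0 to 2 in hypoxia TRAP, 0 to 9 in input and 0 to 13 in TRAP over both oxygen levels. It gave 0 to 1 between oxygen levels in input, 0 to 24 for TRAP against input in normoxia, 0 to 8 in hypoxia, and 0 to 6 for the label by fraction difference.

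With the animal as a replicate block, 474 genes passed for TRAP against input in normoxia and 61 in hypoxia. The pairing changed no call of a marker, but the errors of the markers were smaller under it. Unless the block is named, errors above for hypoxia against normoxia, label by oxygen and TRAP against input come from fits without it. Under the block, Arg1 differed between oxygen levels by 2.01 ± 0.39 in TRAP and 1.66 ± 0.33 in input (limma, adjusted p = 0.664 and 0.417). Depth is unknown, and with 2 control animals each control library weighs heavily. A marker listed at 0 may still be expressed below what these libraries show.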
